A study of Homo sapiens with 18 samples.

Results

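The tripartite motif (TRIM) family of ubiquitin ligases was followed across MDA-MB-231 cells (an established line from a human triple-negative breast tumour) with and without the family member TRIM27 and with and without loss of PARP1 activity or PARP1 RNA. Members were the protein-coding genes of the deposited gene table whose symbol starts with TRIM and a number. This gave 78 genes of the 62830 listed, and 44 of them reached 1 FPKM (fragments normalised to transcript length and library size) in at least 1 library. These 44 are also the members that passed the filter for testing, 1 FPKM in at least 3 of 18 libraries. The other 34 stayed below 1 FPKM in every library, and 22 of those were listed at 0 throughout. TRIM39, with a highest value of 0.745 FPKM, lay just outside the limit, and TRIM74, with a highest value of 1.34 FPKM, just inside it.

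There were 6 groups of 3 libraries: wild-type (TRIM27-WT) and TRIM27 knockout (TRIM27-KO) cells, each untreated, after 2 µM of the PARP inhibitor olaparib for 24 h, or after 48 h with an siRNA against PARP1 (siPARP1, 100 pM as labelled). All groups share the cell line, the culture medium and 1 batch label. The protocols mention vehicle and a non-targeting siRNA, but no library is labelled with either, so the untreated cells are the controls and the effects of solvent and transfection cannot be told apart from those of the agents. The labels do not say whether the knockout line is 1 clone. Nor do they say that replicates were grown apart, and p-values therefore reflect library-to-library spread that may be purely technical.

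TRIM proteins carry a RING domain that recruits a ubiquitin-charged E2 enzyme, B-box zinc fingers and a coiled coil through which they assemble. The C-terminal part differs between classes and usually binds the substrate, most often through a PRY-SPRY domain. Many members are induced by interferon and restrict viruses or tune innate immune signalling, while others act in transcription, mitosis or muscle. TRIM27 ubiquitinates, among others, the WASH complex on endosomes, and PARP1 marks damaged DNA with poly(ADP-ribose).

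The targeted genes were examined first. PARP1 read 59.1, 54.5 and 54.9 FPKM in untreated wild-type libraries and 9.94, 10.6 and 11.7 FPKM after siPARP1. In knockout cells it read 58.9, 51.5 and 55.2 FPKM untreated and 8.71, 9.58 and 9.46 FPKM after siPARP1, so that the siRNA left 19.1% of the level in wild-type cells and 16.8% in knockout cells. PARP1 RNA was also lower under olaparib, at 36.7, 41.9 and 37.9 FPKM in wild-type and 40.6, 38.7 and 40.9 FPKM in knockout libraries. These values lay below every untreated library. Keratins KRT8, KRT18 and KRT19 and vimentin were abundant in all libraries (lowest value 141.4 FPKM), while the epithelial adhesion genes EPCAM and CDH1 stayed at or below 0.31 FPKM and the hormone receptors ESR1 and PGR at or below 0.266 FPKM. The growth factor receptor gene ERBB2, on the same marker list, ranged from 14.4 to 32.4 FPKM. Of the 3 leukocyte markers, PTPRC and CD3E stayed at or below 0.0476 FPKM, and CD68, a lysosomal protein of macrophages also found in other cells, ranged from 4.03 to 24.1 FPKM.

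TRIM27 itself lies on chromosome 6 (chr6:28903002-28923989, minus strand, GRCh38). It read 1.18, 1.51 and 1.65 FPKM in untreated wild-type libraries and 0.665, 0.547 and 0.658 FPKM in untreated knockout libraries. The groups did not overlap, and the knockout level was 43.1% of the wild-type level (log2 change -0.59, SE 0.096, limma adjusted p = 0.000538). Every log2 change is a difference of log2(FPKM + 1), a scale that makes changes of weakly expressed genes look smaller. Under olaparib the wild-type libraries read 1.27, 1.5 and 1.41 FPKM and the knockout libraries 0.555, 0.681 and 0.65 FPKM (log2 change -0.55, adjusted p = 0.00132). After siPARP1 they read 1.78, 1.62 and 2.44 FPKM and 0.946, 0.982 and 1.04 FPKM (log2 change -0.56, adjusted p = 0.000775). TRIM27 RNA was therefore lower in the knockout libraries in all 3 conditions, and no knockout library was at 0.

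The transcript table splits the TRIM27 value over 7 transcripts. The 2 longest coding models, ENST00000377199 and ENST00000377194, were listed at 0 in all 18 libraries, except for 0.133 FPKM of ENST00000377199 in wild-type siPARP1 library 3. The short coding model ENST00000414543 (chr6:28903002-28908989), which covers the 3′ end of the gene, held most of the value in untreated wild-type cells. It read 0.771, 0.866 and 0.833 FPKM in untreated wild-type libraries and 0.25, 0 and 0.28 FPKM in untreated knockout libraries. Models without a coding call carried the rest. ENST00000498117 (chr6:28911307-28921976) read 0.106, 0.35 and 0.504 FPKM in untreated wild-type cells and 0.23, 0.2 and 0.275 FPKM in untreated knockout cells, so these groups overlapped. No TRIM27 transcript passed the filter and none was tested. An exact 0 in such a table can be a failed estimate, and the split between overlapping models was not tested.

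The low level of TRIM27 in wild-type cells was shared by its surroundings. In the 5 Mb of chromosome 6 that hold the major histocompatibility complex (MHC), from 0.403 Mb before the lower end of TRIM27 to 4.6 Mb beyond it, 16 of 181 protein-coding genes (8.84%) had a mean of at least 5 FPKM. The share was 55.6% in the next 5 Mb, 20.2% in the 5 Mb before and 41.6% on the other chromosomes. Of genes that most cells use, chosen here after their values were seen, FLOT1 ranged from 1.27 to 2.56 FPKM, ABCF1 from 0.889 to 2.22 FPKM and BAG6 from 1.64 to 3.35 FPKM. HLA-C stayed at or below 0.721 FPKM, whereas B2M, which encodes the light chain of the same complex on another chromosome, ranged from 159.6 to 264.3 FPKM. The window holds 8 TRIM genes, of which TRIM26 and TRIM27 reached 1 FPKM. TRIM26, an antiviral ligase, read 1.46, 1.41 and 1.23 FPKM in untreated wild-type cells and passed no test. Each gene named here is listed under 1 identifier. No label or file header says how reads that could also map to alternate copies of the MHC were handled, so the FPKM of TRIM27 and of its neighbours may fall short of their true levels, and this was not tested.

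**Figure D1:**
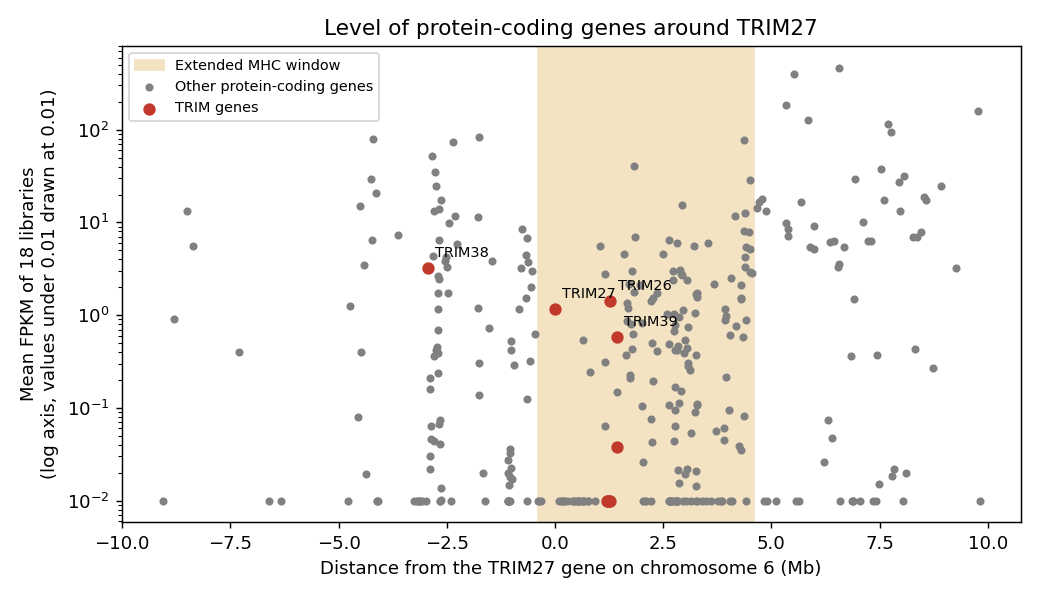
Mean FPKM over 18 libraries (log axis, values under 0.01 drawn at 0.01) of protein-coding genes within 10 Mb of TRIM27, against distance from the lower end of TRIM27 in Mb. The shaded window holds the MHC, where 8.84% of genes reached 5 FPKM, against 55.6% in the next 5 Mb; TRIM genes are red.

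Expression across the family was uneven. Between 38 and 43 members reached 1 FPKM per library and 35 did so in every library. By mean level, 12 members were at 10 FPKM or more, 16 between 5 and 10, 13 between 1 and 5, and 3 had a mean below 1 FPKM. The median of the tested members was 5.54 FPKM, against 8.21 FPKM for all tested genes. TRIM28 (KAP1), the corepressor that silences transposable elements with zinc finger proteins, held 18.7 to 26.2% of the members' summed FPKM. It read 91.7, 105.6 and 97.3 FPKM in untreated wild-type libraries. TRIM25, which ubiquitinates the RNA sensor RIG-I, followed with 35.1, 37.2 and 32.9 FPKM, and TRIM37, a centrosome regulator, with 25.8, 26.2 and 25 FPKM. These 3 do not overlap in untreated wild-type cells. Below them, TRIM59 (16.4 ± 1.16 FPKM, SD, n = 3) stood above TRIM4 (12.8 ± 0.594 FPKM), and TRIM4 and TRIM44 (12.1 ± 0.104 FPKM) overlapped. The summed FPKM of all members (wild type first, SD, n = 3) was 400.9 ± 4.84 and 397.1 ± 7.87 untreated. Olaparib groups had sums of 399.2 ± 8.94 and 394.0 ± 3.83, and siPARP1 groups had sums of 383.7 ± 6.21 and 382.9 ± 12.1.

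**Figure D2:**
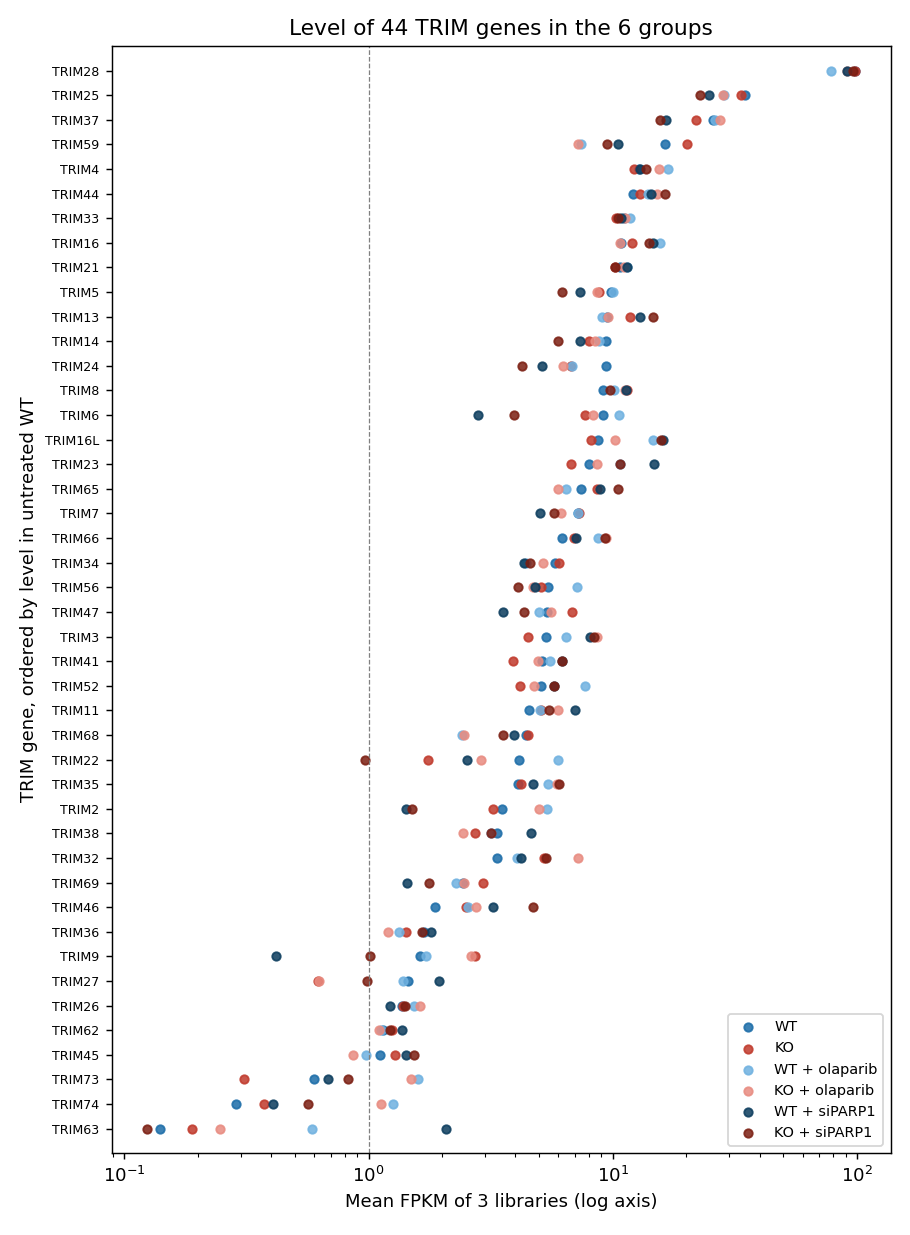
Mean FPKM of 3 libraries (log axis) for the 44 tested TRIM genes in each of the 6 groups, ordered by level in untreated wild-type cells; the dashed line is 1 FPKM. TRIM28 and TRIM25 lead in every group, and TRIM63 spreads most between groups, from 0.124 to 2.08 FPKM.

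Loss of TRIM27 was compared first without treatment. Of the 44 members, 1 was higher and 6 were lower in knockout cells, which is 15.9% of members against 20.5% of all 15764 tested genes (9.58% higher and 10.9% lower). The lower members include TRIM27, the targeted gene, here and in both other conditions. After rescaling to the named genes, 4 were higher and 5 lower. Under olaparib 1 member was higher and 7 were lower in knockout cells (18.2% of members, against 12.8% of all genes, 5.68% higher and 7.16% lower), or 3 and 7 with median-of-ratios scaling. Without wild-type olaparib library 1 this count was 5 in place of 8. After siPARP1 5 were higher and 6 lower (25% of members, against 23.1% of all genes, 11.8% higher and 11.2% lower). The comparisons differ in their libraries but share the knockout and wild-type lines and 1 fit, so they may not be separate repeats of the knockout. TRIM22, TRIM23, TRIM27 and TRIM38 were lower and TRIM9 higher in knockout cells in all 3. The share of all genes called the same way in all 3 was not computed.

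TRIM22, an interferon- and p53-induced antiviral ligase (chr11:5689689-5737089, plus strand), changed most in untreated knockout cells. It read 3.77, 4.08 and 4.54 FPKM in untreated wild-type libraries and 1.6, 1.85 and 1.84 FPKM in knockout libraries, with no overlap (log2 change -0.89, SE 0.063, limma adjusted p = 1.63e-07). The knockout level was 42.6% of wild type untreated, 48.4% under olaparib (log2 change -0.84, adjusted p = 5.01e-07) and 38.3% after siPARP1 (log2 change -0.84, adjusted p = 3.05e-07). TRIM22 lies within the span of TRIM5 on the opposite strand, and the sources used here do not say whether reads were assigned by strand, so reads of the pair cannot be told apart. TRIM5, a capsid-binding restriction factor, read 9.88, 11.2 and 8.51 FPKM in wild-type and 8.63, 9.05 and 8.63 FPKM in knockout libraries and did not pass the test (log2 change -0.14, adjusted p = 0.504). The listed transcripts of TRIM22 sum to 60.9% of its gene value.

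TRIM38, a regulator of Toll-like receptor signalling on chromosome 6, read 3.25, 3.26 and 3.58 FPKM in untreated wild-type and 2.9, 2.48 and 2.76 FPKM in knockout libraries (log2 change -0.23, SE 0.053, adjusted p = 0.00629). Its knockout deficit was -0.29 under olaparib (adjusted p = 0.00203) and -0.43 after siPARP1 (adjusted p = 5.25e-05). TRIM23, which joins a RING to an ADP-ribosylation factor domain and acts in autophagy, read 8, 8.39 and 7.65 FPKM in wild-type and 6.82, 6.61 and 6.89 FPKM in knockout libraries (log2 change -0.21, SE 0.044, adjusted p = 0.00301). After siPARP1 the difference was -0.44 (adjusted p = 6.26e-06). Genes within 5 Mb of TRIM23 had a median change of -0.11 untreated and -0.24 after siPARP1, whereas those around TRIM22, TRIM27 and TRIM38 had medians between -0.08 and 0.01. For TRIM23 and TRIM38 the untreated difference missed the threshold when only the compared groups were fitted (adjusted p = 0.0609 and 0.0913).

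TRIM9, a brain-enriched ligase that binds microtubules, was the member higher in knockout cells in all 3 conditions. It read 1.63, 1.38 and 1.88 FPKM in untreated wild-type and 2.76, 2.46 and 2.95 FPKM in knockout libraries, without overlap (log2 change 0.51, SE 0.115, adjusted p = 0.00613). Under olaparib it read 1.49, 1.73 and 1.94 FPKM in wild-type and 2.74, 2.76 and 2.36 FPKM in knockout libraries (log2 change 0.41, adjusted p = 0.0299). After siPARP1 it read 0.614, 0.421 and 0.213 FPKM in wild-type and 1.26, 0.784 and 0.979 FPKM in knockout libraries (log2 change 0.51, adjusted p = 0.00557). With a pseudocount of 0.1 the untreated call was lost (adjusted p = 0.0506), and so was the olaparib call (adjusted p = 0.148). The olaparib call was also lost with no filter (adjusted p = 0.0708) and without any 1 of wild-type or knockout olaparib libraries 1 and 2 (adjusted p = 0.0724 to 0.116), and the siPARP1 call when only the compared groups were fitted (adjusted p = 0.0693). TRIM37, at 21.5, 22.2 and 22.1 FPKM in untreated knockout libraries (log2 change -0.22, adjusted p = 0.0085), and the RING-less antiviral adaptor TRIM14 (log2 change -0.2, adjusted p = 0.0295) were lower in untreated knockout cells. TRIM14 missed the threshold under 7 of the alternatives, among them those without wild-type library 1 or 3 (adjusted p = 0.0854 and 0.0893) and without knockout library 2 or 3 (adjusted p = 0.067 and 0.109). Under olaparib TRIM52, which lacks a C-terminal domain, read 8.86, 7.3 and 6.96 FPKM in wild-type and 4.51, 5.23 and 4.55 FPKM in knockout libraries (log2 change -0.59, SE 0.135, adjusted p = 0.00904). TRIM16 read 17.6, 15.5 and 14 FPKM and 9.84, 10.4 and 12 FPKM there (log2 change -0.51, adjusted p = 0.0113). TRIM16 and TRIM16L are near-identical copies, so how reads were split between them is uncertain, and the TRIM16 call was lost without wild-type olaparib library 1 (adjusted p = 0.0571) or knockout olaparib library 1 (adjusted p = 0.052). After siPARP1 TRIM46 was higher in knockout cells, at 5.6, 4.23 and 4.4 FPKM against 3, 3.26 and 3.41 FPKM (log2 change 0.44, adjusted p = 0.014), and this was lost without wild-type siPARP1 library 1 (adjusted p = 0.0528) or knockout siPARP1 library 1 (adjusted p = 0.0676). TRIM35 read 4.23, 4.82 and 5.06 FPKM in wild-type and 5.99, 6.15 and 5.97 FPKM in knockout siPARP1 libraries (log2 change 0.31, adjusted p = 0.00707), a call that no alternative lost. Genes within 5 Mb of TRIM35 had a median change of 0.22 in the same comparison. TRIM65 read 7.89, 9.35 and 9.33 FPKM in wild-type and 10.1, 10.1 and 11.3 FPKM in knockout siPARP1 libraries (log2 change 0.23, adjusted p = 0.0296). This call was lost under 4 alternatives, including without wild-type siPARP1 library 1 (adjusted p = 0.133) or knockout siPARP1 library 3 (adjusted p = 0.12).

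**Figure D3:**
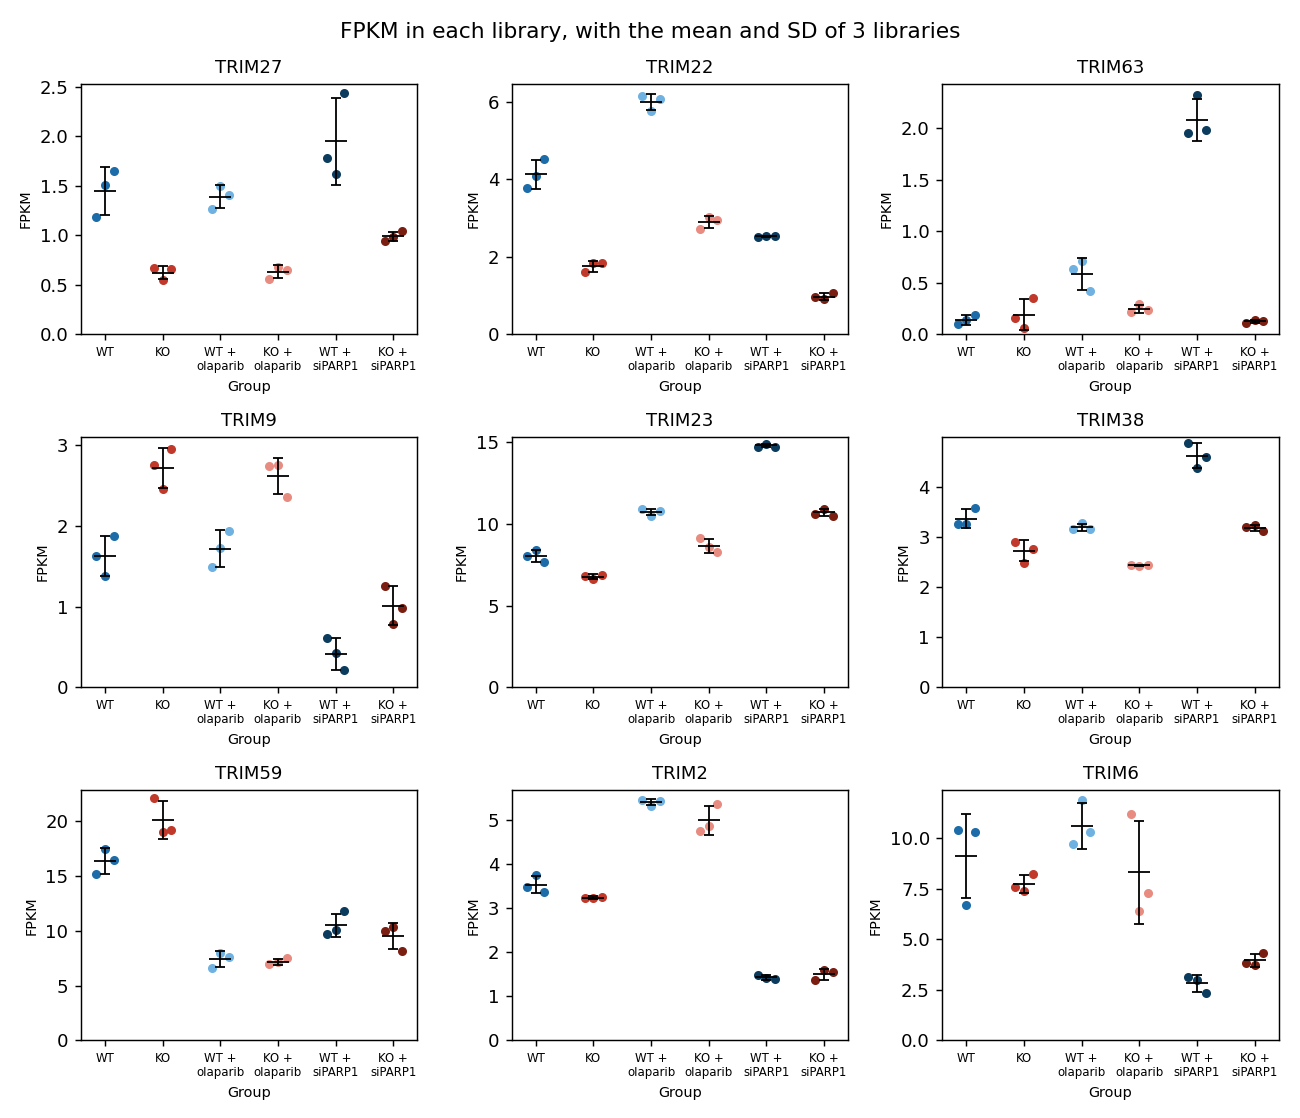
FPKM in every library (points) with the mean and SD of 3 libraries (bars) for TRIM27, TRIM22, TRIM63, TRIM9, TRIM23, TRIM38, TRIM59, TRIM2 and TRIM6 in the 6 groups; each axis starts at 0. Knockout libraries of TRIM27 and TRIM22 lie below the wild-type libraries in each condition, and TRIM63 stands at 1.95 to 2.32 FPKM in wild-type siPARP1 libraries alone.

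Olaparib raised 14 members and lowered 6 in wild-type cells (45.5% of members, against 45.4% of all genes, 24.9% up and 20.4% down), and raised 11 and lowered 5 in knockout cells (36.4% against 47.2%, 25.2% up and 22% down). In knockout cells the split was 10 and 8 after rescaling to named genes. Of the members raised, 9 were shared by both genotypes, which is 64.3% of the wild-type and 81.8% of the knockout list. Of those lowered, 4 were shared, 66.7% and 80% of the lists. The 2 lists rest on separate libraries.

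The largest fall was in TRIM59, a membrane-anchored ligase linked to proliferation. It read 15.2, 17.5 and 16.5 FPKM in untreated wild-type libraries and 6.61, 8.02 and 7.65 FPKM under olaparib, 45.4% of the untreated level (log2 change -1.05, SE 0.097, limma adjusted p = 7e-07). In knockout cells it read 22.1, 19 and 19.2 FPKM untreated and 6.94, 7.17 and 7.5 FPKM under olaparib (log2 change -1.36, SE 0.097, adjusted p = 4.03e-08). No treated library overlapped an untreated one. TRIM59 overlaps SMC4, a condensin subunit gene, on the opposite strand. TRIM68, a coactivator of the androgen receptor, read 4.71, 4.46 and 4.07 FPKM untreated and 2.43, 2.44 and 2.39 FPKM under olaparib in wild-type cells (log2 change -0.66, adjusted p = 5.18e-06), and went from 4.3, 4.91 and 4.36 to 2.57, 2.5 and 2.26 FPKM in knockout cells (log2 change -0.68, adjusted p = 3.63e-06). TRIM25 fell by 0.29 and 0.24 on the log2 scale (adjusted p = 0.00268 and 0.00837), to 28, 26.5 and 31.3 FPKM in wild-type cells. TRIM28 fell by 0.31 in wild-type cells, from 98.2 ± 7 FPKM to 82.3, 81.4 and 72.5 FPKM (adjusted p = 0.00365). In knockout cells TRIM28 stood at 98.5 ± 5.69 and 91.5 ± 2.83 FPKM (adjusted p = 0.283), and its interaction with genotype did not pass (adjusted p = 0.367). TRIM65, which ubiquitinates the RNA sensor MDA5, fell in knockout cells from 9.21, 8.37 and 8.22 to 6.39, 5.5 and 6.03 FPKM (log2 change -0.46, SE 0.069, adjusted p = 7.34e-05). In wild-type cells TRIM65 fell by 0.18 on the log2 scale (adjusted p = 0.044), a call that was lost under 8 alternatives, including without any 1 of the 6 wild-type libraries compared (adjusted p = 0.0621 to 0.125). TRIM45, a weakly expressed member with a filamin-type repeat, went from 1.18, 1.33 and 1.34 to 0.893, 0.882 and 0.805 FPKM in knockout cells (log2 change -0.3, adjusted p = 0.00301).

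Among the rises, TRIM2, an NHL-repeat ligase of neurons, read 3.47, 3.75 and 3.36 FPKM in untreated wild-type libraries and 5.46, 5.32 and 5.42 FPKM under olaparib (log2 change 0.5, SE 0.054, adjusted p = 3.53e-06). In knockout cells it read 3.22, 3.24 and 3.26 FPKM and then 4.75, 4.85 and 5.37 FPKM (log2 change 0.5, adjusted p = 3.55e-06). The listed transcripts of TRIM2 sum to 1.1% of its gene value, so transcript sums gave no check of TRIM2. TRIM22 rose in both genotypes, to 6.16, 5.76 and 6.08 FPKM in wild-type and 2.73, 3.04 and 2.94 FPKM in knockout cells (log2 changes 0.45 and 0.5, adjusted p = 3.86e-05 and 1.34e-05), although the wild-type call was lost with transcript sums (adjusted p = 0.143). TRIM74 rose from 0.392, 0.247 and 0.223 to 1.25, 1.29 and 1.25 FPKM in wild-type cells (log2 change 0.81, adjusted p = 2.26e-05) and from 0.203, 0.37 and 0.545 to 1.05, 1.02 and 1.34 FPKM in knockout cells (log2 change 0.64, adjusted p = 0.000191). Its near-identical copy TRIM73 rose in wild-type cells from 1.04, 0.679 and 0.0686 to 1.29, 1.88 and 1.59 FPKM (log2 change 0.74, adjusted p = 0.00847). In knockout cells TRIM73 rose from 0.448, 0.173 and 0.307 to 1.13, 1.84 and 1.49 FPKM (log2 change 0.92, adjusted p = 0.0018). TRIM74 and TRIM73 passed the filter through the olaparib libraries, so their passing is not support for a change. Outside those libraries TRIM73 reached 1 FPKM only in wild-type library 1 and wild-type siPARP1 library 2 (1.04 FPKM each). The TRIM73 call in wild-type cells was lost when only the compared groups were fitted (limma adjusted p = 0.0552). TRIM3, a relative of TRIM2, rose in knockout cells from 3.56, 5.63 and 4.32 to 7.36, 11.2 and 7.41 FPKM (log2 change 0.8, adjusted p = 0.00128). TRIM16 rose in wild-type cells from 8.69, 12 and 11.6 to 17.6, 15.5 and 14 FPKM (log2 change 0.51, adjusted p = 0.00287), and TRIM16L from 7.4, 7.68 and 11.1 to 17.5, 16.4 and 10 FPKM (log2 change 0.67, adjusted p = 0.0135) with overlapping libraries. The TRIM16L call was lost without any 1 of wild-type libraries 1 and 2 and wild-type olaparib libraries 1 and 2 (adjusted p = 0.0507 to 0.0656).

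After siPARP1, 13 members rose and 13 fell in wild-type cells (59.1% of members, against 51.7% of all genes, 29.5% up and 22.3% down), and 13 rose and 14 fell in knockout cells (61.4% against 54.7%, 31.9% up and 22.8% down). The scaling bears on this split. The median change of all tested genes after siPARP1 was 0.072 in wild-type cells with FPKM as deposited, 0.007 with median-of-ratios scaling and -0.036 after rescaling to named genes. With these the wild-type split became 9 up and 15 down, and 8 and 15. The knockout split became 9 and 14, and 7 and 15. Tested members had a median change of 0.08 (wild type) and 0.01 (knockout), against 0.072 and 0.07 for all genes. Of the members that fell, 12 were shared by both genotypes (92.3% of the wild-type list and 85.7% of the knockout list), and of those that rose, 8 were shared (61.5% of each list). For siPARP1 too, the overlap over all genes was not computed.

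TRIM6, which acts with the kinase IKKε in interferon signalling, read 10.4, 6.71 and 10.3 FPKM in untreated wild-type libraries and 3.13, 3 and 2.33 FPKM after siPARP1 (log2 change -1.39, SE 0.173, limma adjusted p = 1e-05). In knockout cells it read 7.6, 7.37 and 8.22 FPKM and then 3.82, 3.75 and 4.31 FPKM (log2 change -0.82, SE 0.173, adjusted p = 0.00103). The groups did not overlap in either genotype. A readthrough gene joins TRIM6 to TRIM34 on the same strand, and reads of the overlapping part are uncertain between them. TRIM9 fell in wild-type cells to 25.6% of its untreated level (log2 change -0.9, adjusted p = 1.37e-05) and to 37% in knockout cells, where it went from 2.76, 2.46 and 2.95 FPKM to 1.26, 0.784 and 0.979 FPKM (log2 change -0.9, adjusted p = 1.22e-05).

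TRIM2, raised by olaparib, fell after siPARP1 to 1.49, 1.41 and 1.39 FPKM in wild-type cells (log2 change -0.9, SE 0.054, adjusted p = 5.66e-09) and to 1.36, 1.59 and 1.54 FPKM in knockout cells (log2 change -0.77, adjusted p = 2.45e-08). TRIM22 likewise rose under olaparib and fell after siPARP1, where it read 2.52, 2.55 and 2.53 FPKM in wild-type and 0.947, 0.9 and 1.06 FPKM in knockout cells (log2 changes -0.54 and -0.49, adjusted p = 5.26e-06 and 1.19e-05). Both treatments share the untreated controls and differ in time. TRIM59 fell after siPARP1 too, to 9.72, 10.1 and 11.8 FPKM in wild-type cells (log2 change -0.59, adjusted p = 0.000128) and 10, 10.4 and 8.15 FPKM in knockout cells (log2 change -1.01, adjusted p = 6.12e-07). TRIM37 fell to 17.1, 15.9 and 16.6 FPKM in wild-type cells (log2 change -0.61, adjusted p = 2.44e-07), 64.4% of the untreated level. TRIM24, a bromodomain cofactor of nuclear receptors, went from 11.1, 6.05 and 10.9 to 2.99, 6.31 and 6.18 FPKM in wild-type cells (log2 change -0.76, adjusted p = 0.0304) with overlapping libraries, and missed the threshold under 5 alternatives, including those without wild-type library 1 or 3 (adjusted p = 0.111 and 0.106) or wild-type siPARP1 library 1 (adjusted p = 0.157).

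TRIM23 rose in both genotypes. It read 14.7, 14.9 and 14.7 FPKM in wild-type siPARP1 libraries, 184.7% of the level without siRNA (log2 change 0.81, SE 0.044, adjusted p = 1.67e-09), and 10.6, 10.9 and 10.5 FPKM in knockout cells, 157.3% (log2 change 0.58, adjusted p = 4.43e-08). TRIM46, which orders microtubules at the start of axons, rose from 1.9, 1.77 and 1.98 to 3, 3.26 and 3.41 FPKM in wild-type cells (log2 change 0.55, adjusted p = 0.00106) and from 2.11, 3.13 and 2.31 to 5.6, 4.23 and 4.4 FPKM in knockout cells (log2 change 0.71, adjusted p = 0.000116). TRIM16L rose to 16.1, 13.3 and 18.7 FPKM in wild-type cells (log2 change 0.82, adjusted p = 0.0033), and from 8.15, 8.91 and 7.36 to 18.6, 14 and 14.7 FPKM in knockout cells (log2 change 0.87, adjusted p = 0.00195). TRIM3 rose from 3.56, 5.63 and 4.32 to 7.72, 9.71 and 7.79 FPKM in knockout cells (log2 change 0.78, adjusted p = 0.00122). TRIM27 rose by 0.26 and 0.29 (adjusted p = 0.0333 and 0.0182), but its wild-type libraries overlapped, 6 alternatives lost that call and rescaling to named genes lost both. Without wild-type library 1 or wild-type siPARP1 library 3 the wild-type adjusted p was 0.155 and 0.176, and without knockout library 2 or knockout siPARP1 library 3 the knockout adjusted p was 0.0635 and 0.0536.

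**Figure D4:**
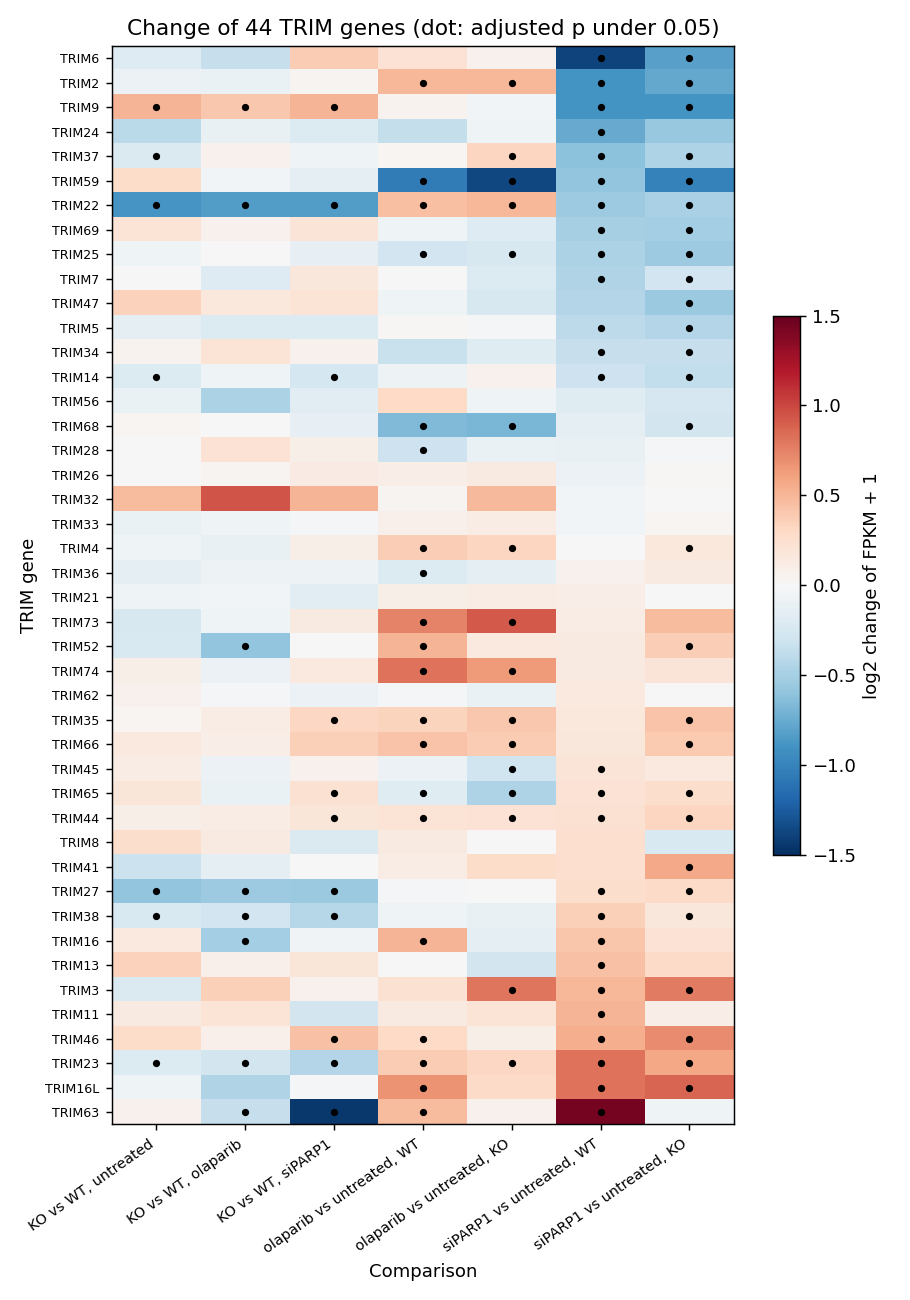
Log2 change of FPKM + 1 for the 44 tested TRIM genes (rows, ordered by the siPARP1 change in wild-type cells) in 7 comparisons (columns); red is higher, blue is lower, colours saturate at 1.5 and a dot marks an adjusted p under 0.05. TRIM59 is blue under both treatments, TRIM2 and TRIM22 turn from red under olaparib to blue after siPARP1, and TRIM63 is red after siPARP1 in wild-type cells only.

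The response of the members was then compared between genotypes. For olaparib no member had an interaction with genotype at an adjusted p under 0.05 in limma, against 3.06% of all genes, and 6 members had an unadjusted p under 0.05. TRIM16 came nearest (log2 difference -0.66, SE 0.169, adjusted p = 0.0514). For siPARP1 1 member, TRIM63, passed (2.27% of members, against 5.26% of all genes), with a lower response in knockout cells. TRIM23, with a smaller rise in knockout than in wild-type cells, just missed the threshold (log2 difference -0.23, SE 0.062, adjusted p = 0.0501).

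TRIM63 (MuRF1, chr1:26051304-26068436, minus strand) is a ligase of striated muscle that marks myofibre proteins for degradation. It read 0.0936, 0.136 and 0.19 FPKM in untreated wild-type libraries and 1.95, 2.32 and 1.98 FPKM after siPARP1 (log2 change 1.44, SE 0.092, limma adjusted p = 1.05e-08). In knockout cells it read 0.155, 0.0626 and 0.352 FPKM untreated and 0.11, 0.14 and 0.123 FPKM after siPARP1 (log2 change -0.07, adjusted p = 0.524). Only the wild-type siPARP1 libraries were above 1 FPKM. The difference between the responses was -1.51 (SE 0.131, adjusted p = 8.73e-06), and the knockout level after siPARP1 was 5.97% of the wild-type level (log2 change -1.45, adjusted p = 5.75e-08). Under olaparib TRIM63 rose in wild-type cells to 0.63, 0.707 and 0.416 FPKM (log2 change 0.47, adjusted p = 0.000762) and stood at 0.215, 0.291 and 0.236 FPKM in knockout cells (adjusted p = 0.54), but this interaction did not pass (log2 difference -0.4, adjusted p = 0.129). TRIM63 passed the filter through the wild-type siPARP1 libraries alone, so its presence among the tested members is no support. With no filter the interaction was -1.51 (adjusted p = 1.63e-05), and with no filter and 1 wild-type siPARP1 library left out in turn it lay between -1.54 and -1.46. The other muscle members of its class, TRIM54 and TRIM55, stayed at or below 0.316 FPKM. Of the 3 leukocyte markers CD68 moved with TRIM63 after siPARP1: it stood at 10.5 FPKM in untreated and 21.5 FPKM in siPARP1 wild-type cells, and its interaction with siPARP1 was -0.77 (adjusted p = 0.00254). Under olaparib CD68 fell in wild-type cells, to 5.73 FPKM (log2 change -0.77, adjusted p = 7.32e-06), where TRIM63 rose. PTPRC and CD3E stayed at or below 0.0476 FPKM. The 250 bases before the RefSeq start of TRIM63 (GRCh38.p14, chr1:26067631-26067880, minus strand) are shown because this is the member whose response differed between genotypes. They hold a TATA box, TATAAA, in capitals with its first base 31 before the start.
TRIM63: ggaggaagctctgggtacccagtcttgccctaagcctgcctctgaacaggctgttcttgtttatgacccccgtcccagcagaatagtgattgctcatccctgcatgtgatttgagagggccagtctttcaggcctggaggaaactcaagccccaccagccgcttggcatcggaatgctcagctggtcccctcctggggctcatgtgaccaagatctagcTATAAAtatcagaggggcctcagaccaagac
TATAAA, searched on both strands, occurs in 11.5% of the 35116 RefSeq windows of the same kind (250 bases before to 50 after a start).

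The members known as interferon inducible were described as a group of 10: TRIM5, TRIM14, TRIM21, TRIM22, TRIM25, TRIM26, TRIM34, TRIM38, TRIM56 and TRIM69. After siPARP1 6 of the 10 fell and 1 rose in each genotype, with a median change of -0.33 in wild-type and -0.36 in knockout cells, against 0.072 and 0.07 over all genes, of which 22.3% and 22.8% fell. The 6 were TRIM5, TRIM14, TRIM22, TRIM25, TRIM34 and TRIM69 in each genotype, and TRIM38 rose, although its rise in knockout cells was lost under both other scalings and without knockout library 2 (adjusted p = 0.0737). TRIM25 went from 35.1, 37.2 and 32.9 to 23.7, 26.8 and 23.9 FPKM in wild-type cells (log2 change -0.48, SE 0.066, limma adjusted p = 2.55e-05). TRIM69, a centrosomal ligase that restricts some viruses, went from 2.26, 2.81 and 2.22 to 1.23, 1.35 and 1.72 FPKM (log2 change -0.5, adjusted p = 0.000145). TRIM14 went from 9.56, 9 and 9.58 to 6.87, 7.39 and 7.88 FPKM (log2 change -0.31, adjusted p = 0.000614). TRIM5 (log2 change -0.39, adjusted p = 0.0245) and TRIM34 (log2 change -0.35, adjusted p = 0.044) each missed the threshold under several alternatives, 6 and 7 in number. These include leaving out wild-type library 1 or 2 or siPARP1 library 1 or 3 for TRIM5 (adjusted p = 0.0567 to 0.125) and wild-type library 1 or 3 or siPARP1 library 1 or 2 for TRIM34 (adjusted p = 0.0725 to 0.2). In knockout cells TRIM34 (adjusted p = 0.0455, with overlapping libraries) missed it under 7 alternatives, including without knockout library 1 or 2 or siPARP1 library 1 or 3 (adjusted p = 0.0862 to 0.183), and TRIM5 with transcript sums (adjusted p = 0.0849) and without knockout siPARP1 library 1 (adjusted p = 0.0571). Olaparib raised 1 of the 10, TRIM22, and lowered 1, TRIM25, in each genotype, a smaller share than over all genes (24.9% up and 20.4% down in wild-type cells, 25.2% and 22% in knockout cells). In knockout cells without treatment 3 of the 10 were lower and none was higher (TRIM14, TRIM22 and TRIM38), against 10.9% lower and 9.58% higher over all genes, and the TRIM14 and TRIM38 calls were lost under alternatives as given above. TRIM21, the cytosolic antibody receptor, kept to a range of 9.6 to 12.2 FPKM over all 18 libraries and passed no test.

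The letters of the interferon-stimulated response element, searched as GAAANNGAAA on both strands, were found in the RefSeq windows of 6 of the 9 genes of this group that have a window (33 of the 44 tested members have one). Over all 35116 windows the share was 3.57%, and 3 of the 24 other tested members with a window held it: TRIM2, TRIM16 and TRIM44. The 3.57% is counted per window and the members per gene. The 9 genes have 10 windows and the 24 have 39, and a gene with several windows has more places for a match. The sites of the 6 genes are shown because most of the group with a window holds the letters. TRIM25, TRIM38 and TRIM56 have a window without them. The sites are given on the strand of the gene, 5′ to 3′, with the match in capitals and 10 bases on each side.
TRIM5: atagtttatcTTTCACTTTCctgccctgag
TRIM14: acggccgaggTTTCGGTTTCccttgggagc
TRIM21: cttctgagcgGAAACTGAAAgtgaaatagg
TRIM26: tcccgcctgaTTTCAGTTTCcatttcgctg
TRIM34: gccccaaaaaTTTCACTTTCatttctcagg
TRIM69: ctaatgagggTTTCTCTTTCtcttaagcaa
These lie at chr11:5685082-5685111 (TRIM5), chr9:98119229-98119258 (TRIM14), chr11:4393666-4393695 (TRIM21), chr6:30213581-30213610 (TRIM26), chr11:5624901-5624930 (TRIM34) and chr15:44736456-44736485 (TRIM69) in GRCh38.p14. TRIM21 and TRIM26 each hold a second match that overlaps the one shown. Of the 6 genes with the letters, TRIM5, TRIM14, TRIM34 and TRIM69 fell after siPARP1 in both genotypes, and TRIM21 and TRIM26 did not pass the test. Of the genes of the group whose window lacks the letters, TRIM25 fell in both genotypes, TRIM38 rose with the limits given above, and TRIM56 did not pass. Of the 3 other tested members with the letters, TRIM2 fell and TRIM44 rose in both genotypes, and TRIM16 did neither in both. A match of letters is a description of the window and not a binding site.

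By domain class, the PRY-SPRY class held 19 of the tested members. Of these 4 rose and 7 fell after siPARP1 in wild-type cells, and 3 rose and 3 fell under olaparib. In untreated knockout cells 3 were lower, the targeted TRIM27 among them. Over all genes 29.5% rose and 22.3% fell after siPARP1, 24.9% rose and 20.4% fell under olaparib, and 10.9% were lower in untreated knockout cells. The bromodomain class of TRIM24, TRIM28 and TRIM33 had 1 fall under olaparib (TRIM28) and 1 after siPARP1 (TRIM24) in wild-type cells and none in knockout cells. Over all genes 20.4% and 22.3% fell in wild-type cells, and 22% and 22.8% in knockout cells. No interaction with genotype passed in this class. TRIM24 also averaged less after siPARP1 in knockout cells, at 4.26 against 6.78 FPKM untreated. It passed there under some alternatives (limma adjusted p = 0.032 to 0.0483), and its wild-type call was lost under alternatives as given above. TRIM33, a cofactor of SMAD signalling, kept to 9.95 to 12.2 FPKM in all libraries. In the NHL class, TRIM2 and TRIM3 changed as above, and TRIM32 was too uneven to read: it ranged from 1.23 to 9.64 FPKM, both within the wild-type siPARP1 group. TRIM32 lies within ASTN2 on the opposite strand. Of the 5 tested members without a RING, 4 rose under olaparib in wild-type cells (TRIM16, TRIM16L, TRIM44 and TRIM66), against 24.9% of all genes. In knockout cells 2 rose (TRIM44 and TRIM66), against 25.2% of all genes. TRIM16 and TRIM16L are near-identical copies, and the TRIM16L call was lost under alternatives as given above. TRIM44, which has a ubiquitin-protease-type zinc finger in place of the RING, rose in narrow steps in wild-type cells, from 12.2, 12 and 12.1 to 14.4, 13.9 and 13.7 FPKM (log2 change 0.2, SE 0.037, limma adjusted p = 0.00056). TRIM66 overlaps the ribosomal protein gene RPL27A, at 238.2 FPKM, on the opposite strand, and its wild-type libraries overlapped. In knockout cells its olaparib call was lost under alternatives, among them no filter (limma adjusted p = 0.0792). Its olaparib call in wild-type cells was lost when only the compared groups were fitted (adjusted p = 0.0776) and without any 1 of wild-type libraries 2 and 3 and wild-type olaparib libraries 1 and 2 (adjusted p = 0.0517 to 0.0955). The members TRIM8, TRIM21, TRIM26, TRIM32, TRIM33, TRIM56 and TRIM62, 7 in all, passed in none of the 7 comparisons between groups. The share of all genes that passed in none was not computed. TRIM8, TRIM32 and TRIM56 were uneven within groups (SE of the log2 change 0.262, 0.634 and 0.208), so for them not passing does not mean a steady level.

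Of 7 TRIM proteins that carry other symbols, 3 were tested. MID1 (TRIM18), a microtubule-bound ligase that controls the phosphatase PP2A, was higher than most members at 41.1, 44.3 and 42.1 FPKM in untreated wild-type libraries. It read 85.1, 84 and 83 FPKM under olaparib (log2 change 0.97, SE 0.04, limma adjusted p = 1.18e-10). In knockout cells it read 60, 58.5 and 59.2 FPKM untreated (log2 change 0.47 against wild type, adjusted p = 1.05e-06) and 131.4, 129.9 and 124.9 FPKM under olaparib (log2 change 1.11, adjusted p = 2.33e-11). The libraries of these 4 groups did not overlap. After siPARP1 MID1 fell by 0.17 and 0.24 (adjusted p = 0.00199 and 0.000111). PML (TRIM19), the scaffold of nuclear bodies, rose by 0.29 under olaparib in wild-type cells (adjusted p = 0.0222), and MID2 fell by 0.43 and 0.44 under olaparib (adjusted p = 0.0401 and 0.0333). The calls of PML and MID2 under olaparib each missed the threshold under at least 1 alternative.

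The E1 enzymes, the E2 enzymes that TRIM ligases use and the ubiquitin genes were a list of 19, all tested. In untreated knockout cells 2 were higher and 1 lower, under olaparib 3 were higher and 5 lower in wild-type cells, and after siPARP1 4 and 4. The shares called over all genes were 20.5%, 45.4% and 51.7% in these comparisons. UBE2L6, the interferon-induced E2 of ISG15 conjugation, read 33.6, 30.9 and 31.8 FPKM in untreated wild-type and 32.4, 33.8 and 32.7 FPKM in untreated knockout libraries. Under olaparib it read 22.5, 23.7 and 22.9 FPKM in wild-type and 16.8, 18.2 and 18.3 FPKM in knockout libraries, and after siPARP1 26, 25.7 and 28 FPKM and 19.8, 20.4 and 19.9 FPKM. The fall was larger in knockout cells under both treatments (interaction -0.4, SE 0.067, adjusted p = 0.00508 for olaparib, and -0.43, SE 0.067, adjusted p = 0.00169 for siPARP1). The 2 genes higher in untreated knockout cells were UBE2E1 (log2 change 0.39, limma adjusted p = 0.000203) and UBE2E2. For each of them, the neighbours within 5 Mb were higher too, with a median of 0.28. UBE2D3 rose after siPARP1 by 0.44 and 0.5 (adjusted p = 2.33e-07 and 4.77e-08).

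Among 15 tested partners and substrates of TRIM27, 7 rose and 1 fell after siPARP1 in wild-type cells, and none was higher and 3 were lower in untreated knockout cells. Over all genes 29.5% rose and 22.3% fell after siPARP1, and 9.58% were higher and 10.9% lower in untreated knockout cells. WASHC2A, a WASH complex subunit with a near-identical copy, WASHC2C, read 32.1, 28.9 and 31.5 FPKM in untreated wild-type libraries and 93.3, 81.5 and 84.6 FPKM after siPARP1 (log2 change 1.46, SE 0.063, limma adjusted p = 1.86e-10). It was lower in untreated knockout libraries, at 26.4, 23.7 and 26.1 FPKM (log2 change -0.27, adjusted p = 0.00677). TBK1, the kinase of innate immune signalling, rose after siPARP1 by 0.74 and 0.53 (adjusted p = 7.91e-09 and 2.15e-07) and under olaparib by 0.47 and 0.41 (adjusted p = 1.25e-06 and 5.02e-06), the last of which was lost with transcript sums (adjusted p = 0.178). RIPK1, the death receptor kinase, was lower in untreated knockout cells (log2 change -0.38, adjusted p = 0.0105), but it missed the threshold when its transcripts were summed (adjusted p = 0.808), when only the compared groups were fitted, and without wild-type library 2 or knockout library 3.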

How the data were processed

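RNA from 18 libraries of MDA-MB-231 cells was analysed from gene and transcript tables of FPKM values deposited by the authors. Per the submitters' processing notes, the authors used DESeq2 1.38.3 and StringTie 2.2.1, the counter featureCounts 2.0.3, the aligner HISAT2 2.2.1 and the trimmer fastp 0.23.2, on GRCh38. Which tool made the FPKM values, the annotation release and the strand setting are not given in the sources used here. Read counts were not used, so absolute depth is unknown. Steps between low values put depth relative to wild-type library 1 between 0.749 and 1.237, and summed FPKM ran from 812699 to 910313. Unnamed loci held 43.41 to 49.77% of it, so the share left to named genes differs between libraries.

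Members were matched by symbol, with gene types and positions from GENCODE 29 on GRCh38. TRIM16L, a member here, is a pseudogene in RefSeq. Another 37 rows with a TRIM symbol are not protein-coding and were left out. Genes at 1 FPKM or more in at least 3 libraries (15764) went into limma 3.58.1 (R 4.3.3) on the log2(FPKM + 1) scale, with all 6 groups in 1 fit (12 residual and 2.06 prior degrees of freedom). P-values were adjusted by Benjamini-Hochberg over all tested genes and called under 0.05. The comparisons were 9: genotype in each condition, each treatment in each genotype, and the interactions. The fit was checked on simulated data.

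Values per library are given for TRIM27, for up to 4 rises and 4 falls per comparison with the largest log2 change (higher group averaging 1 FPKM or more), and for members of the classes described. Lists were the domain classes, interferon-inducible and p53-target members, TRIM proteins under other symbols, ubiquitin enzymes and TRIM27 partners. Of the 3 p53-target members, TRIM22 alone passed any test. The members and lists were chosen with earlier results of these data known. Promoter windows are RefSeq's (GRCh38.p14), and TRIM11, TRIM13, TRIM16L, TRIM22, TRIM24, TRIM27, TRIM28, TRIM35, TRIM4, TRIM45 and TRIM8 had none. Alternatives were a pseudocount of 0.1, no filter, median-of-ratios scaling, rescaling to the named genes, transcript sums, fits of only the compared groups, a replicate block and leaving out each library. Leaving out wild-type siPARP1 libraries without a filter, for TRIM63, was chosen after seeing the data.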

Additional observations from a re-analysis of the deposited data

Results flagged for a closer look

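The response of TRIM63, the muscle ligase MuRF1, to siPARP1 differed between genotypes by the interaction term (log2 difference -1.51, limma adjusted p = 8.73e-06). The wild-type siPARP1 libraries read 1.95, 2.32 and 1.98 FPKM and the knockout siPARP1 libraries 0.11, 0.14 and 0.123 FPKM. All 3 wild-type siPARP1 libraries lay above every other library. CD68 moved with it, with an interaction of -0.77 (adjusted p = 0.00254), and its part in the result was not tested.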

How the results depend on the processing

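No call or count changed direction under the alternatives run. Of the 116 calls of tested members, interactions included, 76 were lost under no alternative and 40 under at least 1. Counted per call and alternative, 181 of 1501 missed the threshold. For knockout against wild type without treatment, 4 members were called instead of 7 when only the compared groups were fitted, a fit with fewer residual degrees of freedom. Under olaparib this count ranged from 5 (without wild-type olaparib library 1) to 9 with libraries left out. For the interaction of olaparib with genotype, 0 members were called, and 2 with median-of-ratios scaling, 1 after rescaling to named genes, 2 with transcript sums, 1 with the replicate block, and 0 to 1 with a library left out. For the interaction of siPARP1, 1 member was called, and 2 with median-of-ratios scaling, 2 after rescaling, 2 with transcript sums, and 0 to 2 with a library left out. The 0 came without each wild-type siPARP1 library, where TRIM63 drops below the filter, and the 2 without wild-type library 2. Otherwise the cause was not tested. With the replicate block TRIM16 gave the olaparib interaction call (log2 difference -0.66). Libraries with the same replicate number did not deviate together (mean r 0.007 over 45 pairs, none over 0.1), so they share only a number. Absolute depth is unknown, which limits what can be said of members below 1 FPKM.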

Other observations

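UBB and RPS27A, both sources of ubiquitin, moved in opposite directions under olaparib. UBB, which encodes polyubiquitin, read 442.9, 360.7 and 354.3 FPKM in untreated wild-type libraries and 505.5, 531.8 and 503.4 FPKM under olaparib (log2 change 0.42, limma adjusted p = 0.00258). Knockout libraries read 331.7, 434.7 and 343.3 FPKM and then 564.4, 505.2 and 561.1 FPKM (log2 change 0.56, adjusted p = 0.000232). RPS27A, which encodes ubiquitin fused to a ribosomal protein, read 629.2, 648.5 and 648.4 FPKM in untreated wild-type libraries and 473.5, 524.5 and 477.5 FPKM under olaparib (log2 change -0.39, adjusted p = 0.000748). In knockout cells its log2 change was -0.43 (adjusted p = 0.000275). Treated and untreated libraries did not overlap for either gene in either genotype, and no alternative run lost these 4 calls.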
